A study of Caenorhabditis elegans with 2 samples.

Results

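The mir-51 family of C. elegans comprises the miRNA genes cel-mir-51, cel-mir-52, cel-mir-53, cel-mir-54, cel-mir-55 and cel-mir-56. These 6 of the 261 annotated nuclear miRNA genes were selected on their names, with the SEM-2 peaks at these genes already known, so the values below describe the members and no test was run on them. SEM-2, the worm SoxC transcription factor, was profiled by chromatin immunoprecipitation and sequencing (ChIP-seq) with an antibody against GFP. Both samples were mixed-stage, mixed-sex embryos obtained by bleaching, labelled with an age of 1 hour, from strain OP701. This strain carries the unc-119(tm4063) mutation and the transgene wgIs701, which supplies sem-2::TY1::EGFP::3xFLAG together with unc-119(+). There was 1 group of 2 replicates, numbered 1 and 3, from whole embryos of all tissues and with no untagged or untreated group analysed here. The transgene adds copies of tagged SEM-2, and the promoter that drives it is not given in the sources used here.

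A miRNA gene is transcribed into a long primary RNA, from which Drosha and Pasha cut a hairpin; Dicer then releases the mature miRNA, which is loaded into an Argonaute protein. Target choice depends mainly on the seed, the bases near the 5′ end of the mature miRNA, so genes that share a seed are treated as a family. In C. elegans the mir-51 family acts redundantly: loss of all members is lethal during embryogenesis, and the family is known for its role in attachment of the pharynx, where the Fat-like cadherin gene cdh-3 is a target.

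The mature sequences are shown because the seed defines the family. They were read from the RefSeq annotation of the WBcel235 assembly, which is the ce11 sequence, with the seed (bases 2 to 8) in capitals.

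cel-mir-51: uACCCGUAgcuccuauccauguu
cel-mir-52: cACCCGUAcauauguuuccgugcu
cel-mir-53: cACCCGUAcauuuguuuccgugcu
cel-mir-54: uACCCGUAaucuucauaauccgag
cel-mir-55: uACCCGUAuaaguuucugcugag
cel-mir-56: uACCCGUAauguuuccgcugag

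All 6 members carried the seed ACCCGUA, and no other gene among the 260 miRNA genes with an annotated mature sequence carried it. The seed-bearing miRNA came from the 5′ arm of the hairpin for mir-51, mir-52 and mir-53, and from the 3′ arm for mir-54, mir-55 and mir-56. After the seed the members differed. mir-52 and mir-53 matched at 23 of 24 bases, whereas the other 14 pairs matched at 39.1% to 63.6% of bases, read without gaps from the 5′ end.

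The members lie at 3 loci. cel-mir-51 (chromosome IV, 11026013 to 11026112, minus strand) and cel-mir-53 (chromosome IV, 11027593 to 11027691, minus strand) are 1480 bp apart, between alh-3 and hrg-5. cel-mir-52 (chromosome IV, 14034008 to 14034107, plus strand) stands apart from the other members, 9379 bp from the nearest protein-coding gene on its left and 8487 bp from that on its right. The non-coding RNA gene Y37A1B.330, on the same strand, ends upstream of it with a gap of 3 bp. On X, mir-54 (13144996 to 13145094), mir-55 (13144827 to 13144924) and mir-56 (13144691 to 13144787) form a cluster of 404 bp on the minus strand, inside the protein-coding gene F09A5.3 on the opposite strand. The miRNA gene cel-mir-55b is annotated across mir-55 on the plus strand, so a peak there belongs equally to both.

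Peaks were taken for a member when the summit lay from 3000 bp upstream of its 5′ end to 500 bp past its 3′ end. Of 6 members, 5 had at least 1 summit of the thresholded list, which holds the 634 peaks that passed the authors' analysis of the irreproducible discovery rate. By the same rule, 25 of 261 nuclear miRNA genes (9.58%) and 893 of 19973 nuclear protein-coding genes (4.47%) had a thresholded summit. The members were chosen with these peaks known, so nothing is read from the difference. The 5 members shared 5 distinct summits: 1 at mir-51, 2 at mir-52 and 2 at the X cluster. mir-53 had no thresholded summit. No tRNA, snoRNA or snRNA gene lay within 100 bp of any of the 5 summits, although 268 of the 617 nuclear thresholded summits had such a gene that close.

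The sequences at the strongest summit of each locus are shown because they hold both the summit and, for all 4, the mature miRNA, which is in capitals. The mir-53 window, whose peak was not thresholded, is shown for comparison. Each is 300 bases of ce11 (read from RefSeq WBcel235) on the strand of the gene, with the summit in the middle.

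cel-mir-51, chrIV:11026046-11026345, minus strand: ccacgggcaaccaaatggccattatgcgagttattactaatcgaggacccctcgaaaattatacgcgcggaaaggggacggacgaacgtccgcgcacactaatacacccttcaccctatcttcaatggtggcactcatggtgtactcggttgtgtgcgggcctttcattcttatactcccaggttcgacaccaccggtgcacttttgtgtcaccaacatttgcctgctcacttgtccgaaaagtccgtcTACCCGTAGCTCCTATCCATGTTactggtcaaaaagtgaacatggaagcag
cel-mir-52, chrIV:14033868-14034167, plus strand: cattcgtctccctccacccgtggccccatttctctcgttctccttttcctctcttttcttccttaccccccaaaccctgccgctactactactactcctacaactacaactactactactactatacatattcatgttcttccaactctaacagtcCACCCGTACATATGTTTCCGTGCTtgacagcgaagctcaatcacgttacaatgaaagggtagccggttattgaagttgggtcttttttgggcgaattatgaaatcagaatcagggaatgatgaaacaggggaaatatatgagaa
cel-mir-53, chrIV:11027606-11027905, minus strand: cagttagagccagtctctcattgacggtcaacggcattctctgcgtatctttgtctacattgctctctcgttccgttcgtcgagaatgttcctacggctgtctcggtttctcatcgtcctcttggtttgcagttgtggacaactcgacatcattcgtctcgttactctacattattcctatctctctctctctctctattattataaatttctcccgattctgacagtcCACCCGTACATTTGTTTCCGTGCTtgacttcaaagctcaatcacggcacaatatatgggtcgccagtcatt
cel-mir-54, chrX:13144937-13145236, minus strand: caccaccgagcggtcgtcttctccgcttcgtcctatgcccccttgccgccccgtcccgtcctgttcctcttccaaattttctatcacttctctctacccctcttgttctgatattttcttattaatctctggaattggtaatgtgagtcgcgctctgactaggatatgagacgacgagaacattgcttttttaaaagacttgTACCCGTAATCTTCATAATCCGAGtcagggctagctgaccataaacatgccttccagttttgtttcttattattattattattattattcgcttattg

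The strongest peak of the family was at mir-51. Its summit lay 84 bp upstream of the hairpin's 5′ end (chromosome IV, peak 11025836 to 11026451, summit 11026196). The authors' signal value, whose scale is not given and which is compared here only within a list, was 1229.7 and ranked 12 in the combined list made from both replicates. It was 833 (rank 20) in replicate 1 and 392 (rank 7) in replicate 3, and the summits of the replicates fell 84 and 83 bp upstream. Both replicates thus placed the summit at the same position and among their 20 strongest peaks. Of the 617 nuclear thresholded peaks it was number 4 in order of signal. It was number 1 of the 349 without a tRNA, snoRNA or snRNA gene within 100 bp.

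The mir-51 summit did not lie in the miRNA gene but in F36H1.17, an 89-base gene annotated as unclassified non-coding RNA (chromosome IV, 11026131 to 11026219, minus strand), which starts and ends upstream of the hairpin with a gap of 18 bp. The sequence of F36H1.17 is printed because the summit is at its base 24. The capitals mark the word GTTCGANNC, a loose form of the core of the B box, the element inside tRNA genes that recruits the RNA polymerase III factor TFIIIC.

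F36H1.17, chrIV:11026131-11026219, minus strand: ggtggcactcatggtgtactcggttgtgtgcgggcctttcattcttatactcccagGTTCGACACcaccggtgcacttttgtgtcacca

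The word occupied bases 57 to 65 of F36H1.17, and the near end of the word was 33 bp from the summit. It was chosen after this sequence had been seen. On either strand within 150 bp, it occurred at 74.5% of the 192 nuclear thresholded summits near tRNA genes, at 30% of the 60 near snoRNA genes, and at 11 of the 349 (3.15%) away from tRNA, snoRNA and snRNA genes, of which mir-51 was 1. None of the other 4 family summits had it. The stricter core GTTCGANTC was at 97 of 617 summits (15.7%) and at none of the family's. A match of letters is not evidence of a bound site.

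**Figure D1:**
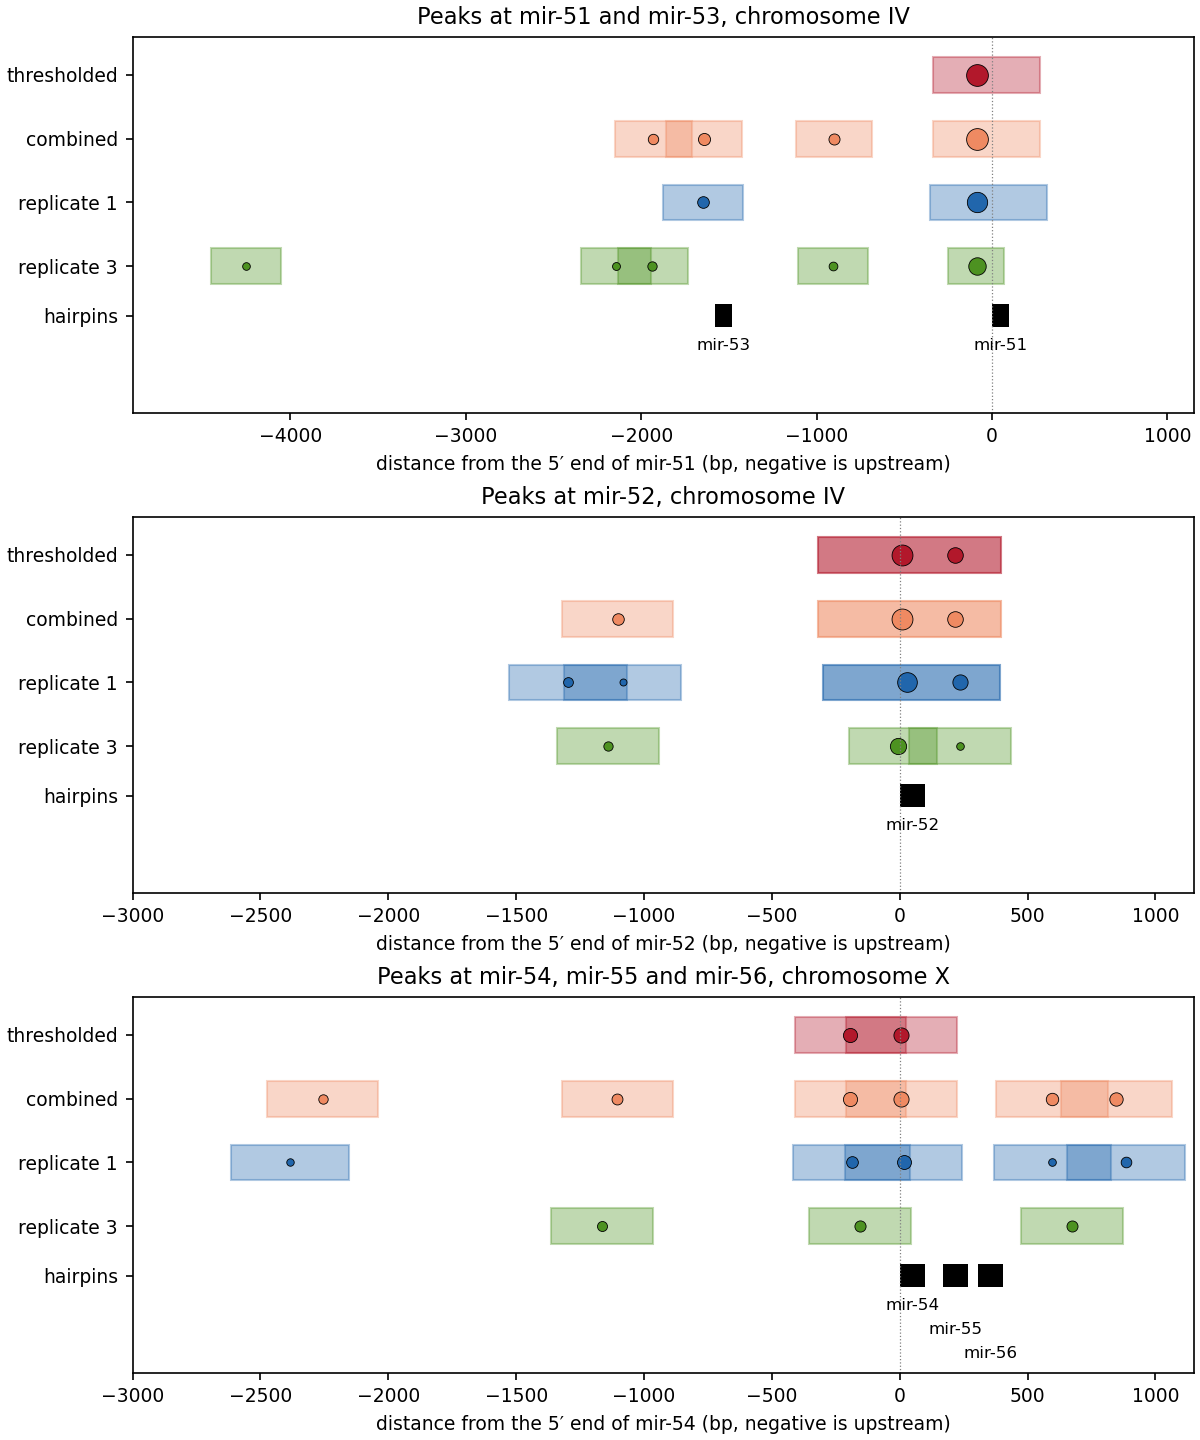
Peaks in each list at the 3 loci of the family; the x axis is the distance in bp from the 5′ end of mir-51, mir-52 or mir-54, bars span the peaks, dots mark summits with a size that grows with the log of the signal, and black boxes are hairpins. The summit at mir-51 falls 84 bp upstream in the combined list, while that at mir-52 lies 10 bp inside the hairpin gene.

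The second strongest family peak was at mir-52, a member whose mature sequence differs from that of mir-53 at 1 base. Its summit was inside the hairpin, 10 bp past the 5′ end (chromosome IV, peak 14033688 to 14034404, summit 14034018), with a signal of 981 and rank 20 in the combined list. In replicate 1 the signal was 705 (rank 24) with the summit 30 bp past the 5′ end, and in replicate 3 it was 285 (rank 17) with the summit 5 bp before it. The ranks of the replicates were close and the summits spanned 35 bp. The non-coding RNA gene Y37A1B.335 overlaps the hairpin on the opposite strand, so the combined-list summit lies in both genes. The replicate 3 summit lay in Y37A1B.335 and in Y37A1B.330, the non-coding RNA gene just upstream on the same strand, and not in the hairpin.

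The same peak region carried a second thresholded summit, 119 bp past the 3′ end of the mir-52 hairpin, in intergenic sequence. Its signal was 239 (rank 278) in the combined list and 218 (rank 185) in replicate 1. In replicate 3 the nearest summit had a signal of 28.9 (rank 19707 of 30000). The second summit was therefore strong in replicate 1 and weak in replicate 3, whereas the main summit was strong in both. At 717 bp for mir-52 and 616 bp for mir-51, these regions were wider in the combined list than the median thresholded peak of 436 bp. In replicate 1 they were 695 bp at mir-52 and 668 bp at mir-51. In replicate 3 the peaks with the main summits were 345 bp at mir-52 and 320 bp at mir-51, while its second mir-52 peak was 400 bp. All other family peaks were 436 bp wide in the combined list, 460 bp in replicate 1 and 400 bp in replicate 3. Widths are therefore not comparable between lists.

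The mir-54, mir-55 and mir-56 cluster had weaker thresholded summits than mir-51 or mir-52. One lay inside the mir-54 hairpin, 7 bp past its 5′ end (X, peak 13144869 to 13145304, summit 13145087), with a signal of 213 and rank 339. In replicate 1 it was 154 (rank 295). The other lay 194 bp upstream of mir-54 (X, peak 13145070 to 13145505, summit 13145288), with a signal of 164 and rank 538, and was 85.6 (rank 905) in replicate 1. Both summits fell in an intron of F09A5.3. Measured from mir-55 they were 163 and 364 bp upstream, and from mir-56, at the far end of the cluster, 300 and 501 bp upstream.

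Replicate 3 had 1 peak where replicate 1 had this pair of summits at the start of the cluster. Its summit was 155 bp upstream of mir-54, in the non-coding RNA gene F09A5.11, with a signal of 74.3 and rank 619. It overlapped both thresholded peaks of the cluster, so the same value is matched to each. Its summit was 39 bp from the upstream thresholded summit and 162 bp from the hairpin summit. Replicate 3 thus ranked a peak upstream of mir-54 inside its 634 strongest but had no summit in the mir-54 hairpin.

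Peaks also lay at the 3′ side of the X cluster without reaching the thresholded list. The stronger one, in an intron of F09A5.3 and 443 bp past the 3′ end of mir-56, had a combined signal of 132 (rank 981) and 64.0 in replicate 1 (rank 2308). It overlapped a replicate 3 peak with a signal of 71.8 (rank 702), whose summit was 171 bp from its own. A second, 192 bp past the 3′ end, had a combined signal of 103 (rank 2266) but reached only 29.2 (rank 21920) in replicate 1. It overlapped the same replicate 3 peak, whose summit was nearer to it, at 80 bp. The edge of the thresholded list lay between signals of 153.5 and 153.4. The family peak nearest inside it was the upstream summit of the cluster at 164, and the nearest outside was that at 132.

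mir-53 differed from the other members in having no thresholded summit, although its hairpin is closest in mature sequence to mir-52. Its strongest combined-list peak had a summit 65 bp upstream of the hairpin (chromosome IV, peak 11027538 to 11027973), with a signal of 94.98 and rank 3051. In replicate 1 this peak had a signal of 84.5 and rank 941, with the summit 68 bp upstream. In replicate 3 the overlapping peak had a signal of 45.7 (rank 4947) and its summit was 357 bp upstream, which is closer to the second mir-53 peak of the combined list (352 bp upstream, signal 60.5, rank 13266). No replicate placed mir-53 among its 634 strongest peaks. The mir-51 summit lay 897 bp outside the mir-53 window, on its downstream side.

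**Figure D2:**
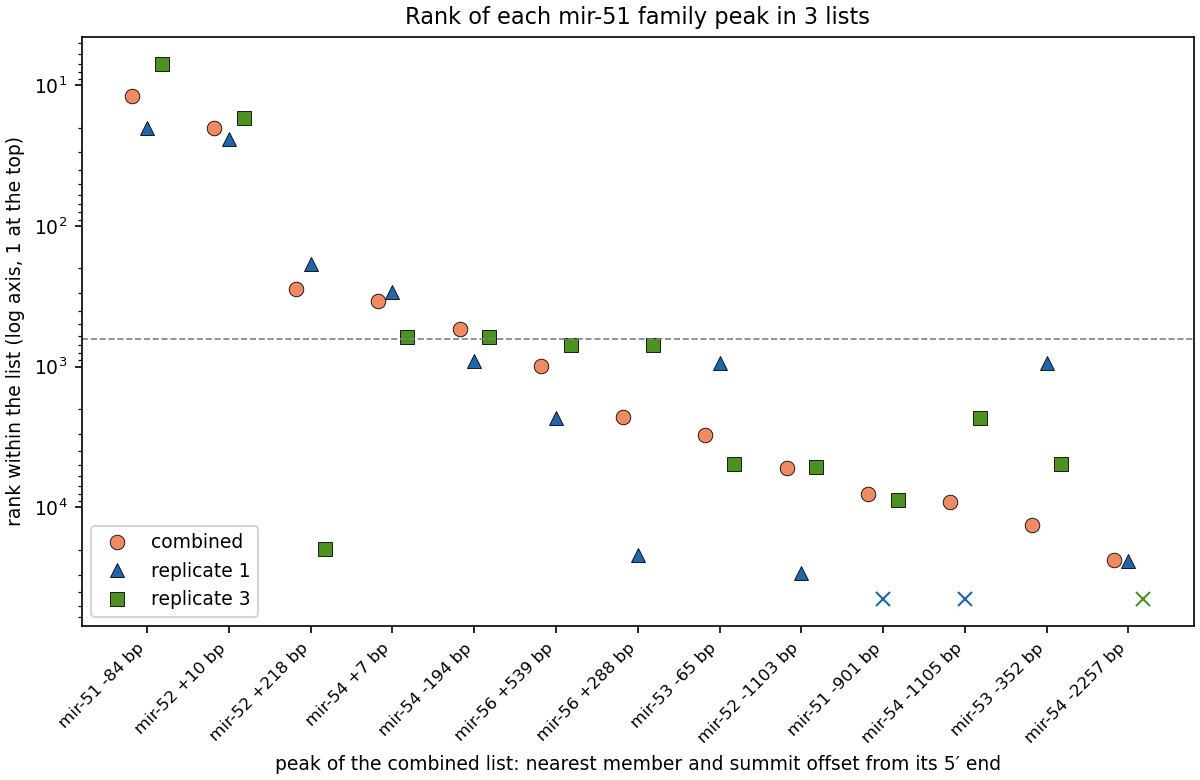
Rank of each of the 13 distinct combined-list peaks of the family (circles) and of the overlapping replicate 1 (triangles) and replicate 3 (squares) peak with the nearest summit, on a log axis with rank 1 at the top; crosses mark no overlapping peak, and the dashed line is rank 634. The peaks at mir-51 and mir-52 keep ranks from 7 to 24 in all 3 lists, while the second mir-52 summit falls to 19707 in replicate 3.

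The remaining family peaks were weak. The combined list held 13 distinct peaks in the windows of the members and each replicate list held 11, with combined signals down to 46.5 at a summit 2257 bp upstream of mir-54. These lists hold background as well as peaks, so the weaker entries may be background. The deposited −log10 q-value in the combined list was 1.92 at every thresholded family summit. At the other family entries it ran from 0.175 to 1.83, and at the strongest mir-53 peak it was 0.983. A peak 1103 bp upstream of mir-52 had a combined signal of 82.2, and the overlapping replicate 3 peak had 45.3. Replicate 1 had a pair of overlapping peaks there, with signals of 24.6 at the nearest summit, 1083 bp upstream, and 50.99 at a summit 1297 bp upstream. Peaks 901 bp upstream of mir-51 (combined signal 72.2) and 1105 bp upstream of mir-54 (combined signal 69.3) had no overlapping peak in replicate 1. Every member had at least 1 combined-list peak, but so did 70.9% of all miRNA genes and 67.2% of protein-coding genes, so this count is no result about the members.

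The same 5 members were found in each replicate when its 634 strongest peaks took the place of the thresholded list. In replicate 1 the members' windows held 4 distinct strongest summits, beside 9.2% of all miRNA genes and 4.51% of protein-coding genes with one. In replicate 3 they held 3 distinct summits, beside 11.1% and 4.15%.

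**Figure D3:**
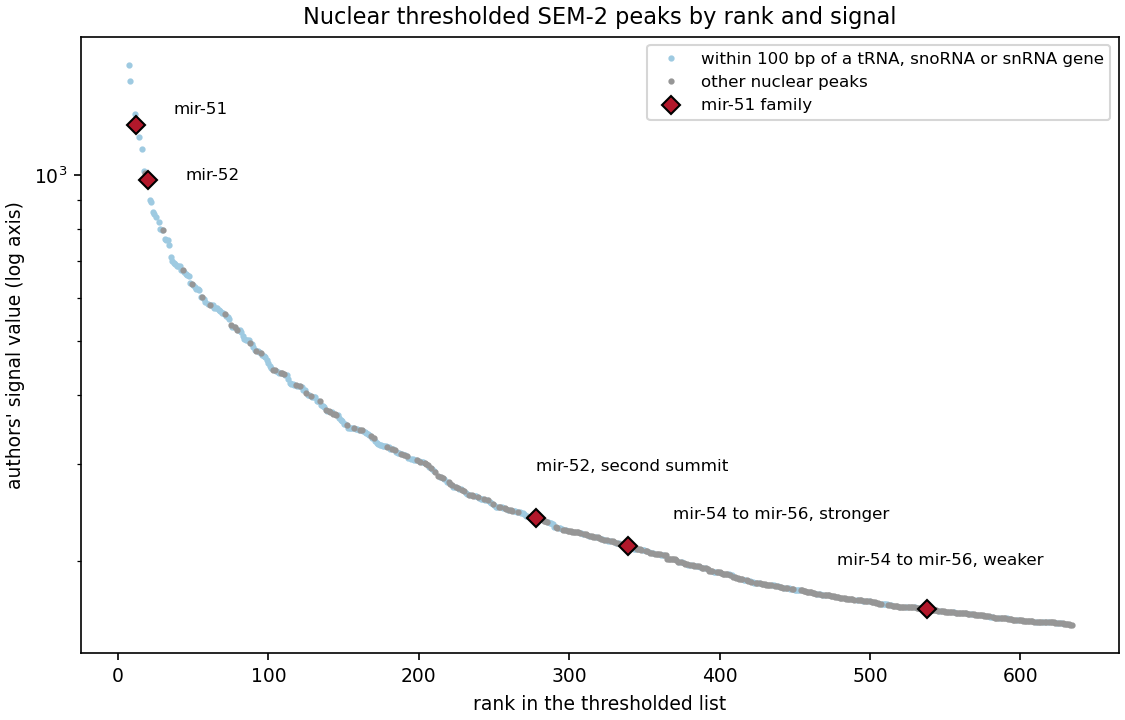
Signal value (log axis) against rank for the 617 nuclear peaks of the thresholded list, with the 5 family summits as diamonds, peaks within 100 bp of a tRNA, snoRNA or snRNA gene in blue and the others in grey. The mir-51 and mir-52 summits, at 1229.7 and 981, stand at the strong end, and those of the X cluster, at 213 and 164, in the weaker part.

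Among miRNA genes ordered by the strongest combined-list signal in the window, mir-51 was number 1 and mir-52 number 2 of the 185 with a peak. The cluster genes mir-54, mir-55 and mir-56 shared number 14 with mir-55b, and mir-53 was further down at 94.98, above the median of 79.0 over all miRNA genes with a peak. Of the 255 miRNA genes outside the family, 20 (7.84%) had a thresholded summit, with signals of at most 583.

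Outside the family, the miRNA genes nearest to mir-51 in this signal were mir-4813 (583), mir-71 (334) and mir-58a (312). For mir-4813 and mir-71 the summit was near the far edge of the window, 2903 and 2993 bp upstream. For mir-58a, a gene of the abundant bantam-like mir-58 family, it was 185 bp upstream. The other mir-58 family genes examined, mir-80, mir-81 and mir-82, had signals of 113, 116 and 41.0, with none thresholded. The genes annotated as mir-58b and mir-58c shared a peak with a signal of 43.9 (rank 25987), also not thresholded.

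In the mir-35 family, which is also required in the embryo, the genes mir-35 to mir-41 are clustered as well. The windows of these genes shared 2 thresholded summits. The stronger, with a signal of 261 (rank 239), was inside the mir-37 hairpin, in an intron of Y62F5A.9, and the other had a signal of 202 (rank 368). The window of mir-42 held neither of these summits. Its strongest signal was 143, at a peak shared with the windows of mir-43 and mir-44. The let-7 family genes, which time larval development, had strongest signals of 42.0 for let-7, 44.8 for mir-48, 52.4 for mir-84 and 62.2 for mir-241. The signal was 95.2 for lin-4, another larval timing gene, and 141 for the muscle miRNA mir-1. The further miRNA genes with a thresholded summit were mir-230 (302, beside a tRNA gene), mir-2215 (194), mir-62 (192), mir-2 (172), mir-354 (166), mir-87 (161), mir-73 and mir-74 (161, 1 summit) and mir-8190 (153.7), besides mir-55b.

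**Figure D4:**
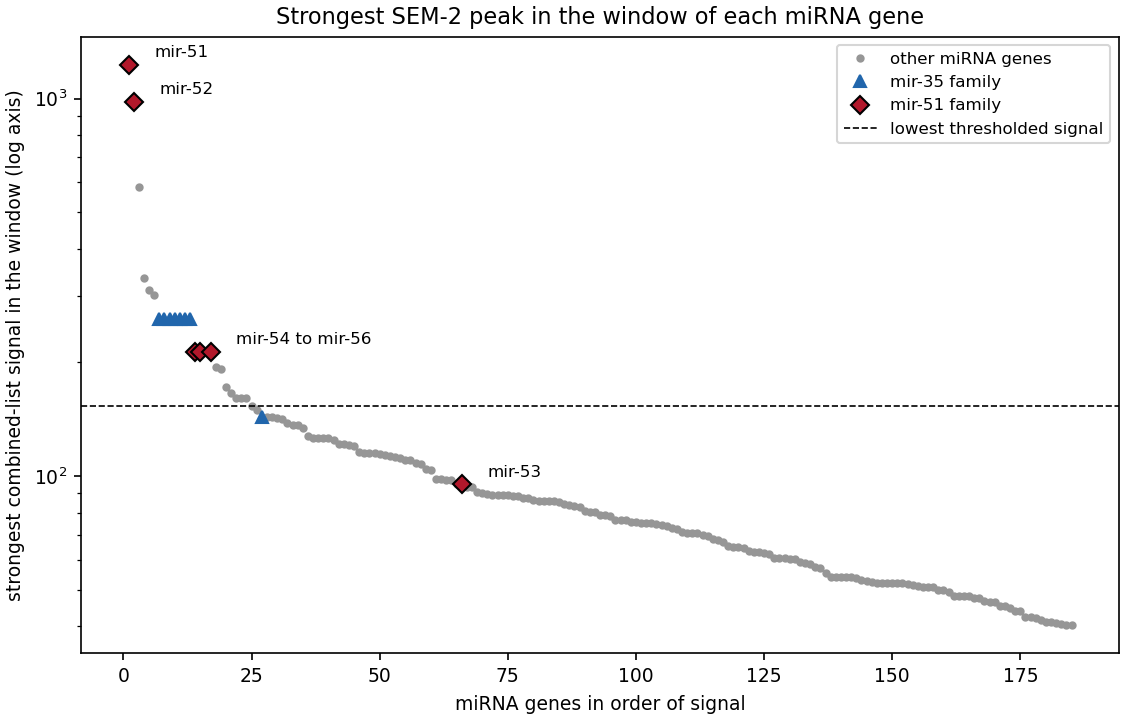
Strongest combined-list signal (log axis) in the window of each of the 185 nuclear miRNA genes with a peak, in descending order, with the mir-51 family as diamonds, the mir-35 family as triangles and the lowest thresholded signal as a dashed line. mir-51 and mir-52 lead at 1229.7 and 981, mir-54 to mir-56 share 213, and mir-53 is at 94.98, below the line.

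Of the words that Sox proteins are known to bind, only ACAAAG and ACAATG were searched for around the summits. Other forms were not searched, so a summit without either word may still lie near a Sox word. The Sox word ACAAAG was within 150 bp of none of the 5 thresholded family summits and of 72 of all 617 (11.7%). The Sox word ACAATG was near 1, the main mir-52 summit, and near 97 of 617 (15.7%); both were searched on either strand. In the mir-53 window printed above, ACAAAG was present. The content of G and C within 50 bp of the summit was 51.5% at mir-51, 41.6% and 39.6% at mir-52, and 36.6% and 59.4% at the X cluster, where the median of all nuclear thresholded summits was 51.5% with quartiles of 46.5% and 55.4%. The mir-51 value thus lay within the quartiles, those at mir-52 and at the mir-54 hairpin below them, and that upstream of mir-54 above them.

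Of 14 genes that make, use or turn over miRNAs or are a target of the family, 2 had a thresholded summit in the same window, which spans the whole gene, where 4.47% of all protein-coding genes had one. These were vig-1, which encodes a subunit of the RNA-induced silencing complex (signal 226, rank 305, 459 bp upstream), and the Drosha gene drsh-1 (signal 165, rank 522, 2993 bp upstream and so at the window's edge). The vig-1 window had a best rank of 317 in replicate 1 and 998 in replicate 3, and drsh-1 had 378 and 1268, so neither was among the 634 strongest of replicate 3. The Argonaute gene alg-1 just missed the list (rank 653, 1605 bp past the 5′ end). Its paralog alg-2 had rank 1754, with the summit 356 bp past the 5′ end. The best ranks of ain-1 and ain-2, which encode the GW182-like partners of Argonaute, were 1013 and 2892, and that of the TRIM-NHL cofactor gene nhl-2 was 975. Of these, ain-1 and nhl-2 were each among the 634 strongest of 1 replicate only: ain-1 ranked 453 in replicate 1 and 2913 in replicate 3, and nhl-2 ranked 4386 in replicate 1 and 365 in replicate 3. The Dicer gene dcr-1 had rank 4225, the exonuclease genes xrn-1 and xrn-2 ranks 2139 and 3810, the Tudor nuclease gene tsn-1 rank 6220 and the RNA helicase gene cgh-1 rank 8314. The Pasha gene pash-1 and the family target cdh-3 had no combined-list summit in their windows. In the replicate lists pash-1 had best ranks of 1720 in replicate 1 and 2791 in replicate 3, and cdh-3 had 13364 in replicate 3 and no summit in replicate 1.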

How the data were processed

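ChIP-seq peak lists in narrowPeak layout on ce11 were analysed. Per the list of files deposited with each sample, the authors made 1 list of peaks and background from each replicate and 1 from both together (30000 peaks each), and derived from these a thresholded list of 634; all 634 were found in the combined list. Column 7 is the deposited signal value, used only within a list; column 9 is the deposited −log10 q-value. No caller, aligner or threshold is named there. The lists hold no read counts, so depth is unknown and no counting interval is given. Chromatin was sheared to 200 to 800 bp per the labels, which limits how closely a summit can be placed.

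Summits (start plus column 10, given 1-based) were placed on the Ensembl release 115 annotation of WBcel235 with Python 3.11.15, pandas 2.3.3 and numpy 2.4.6. Peaks were matched across lists by an overlap of 1 bp, taking the nearest summit. Window assignment and word search were tested on simulated data. The members and gene lists were chosen with earlier results of these data known. Genes named are the members, their neighbours, fixed miRNA families and miRNA pathway genes, every miRNA gene with a thresholded summit, and the 3 nearest to the strongest member in signal. let-7 was matched by its WormBase identifier through RefSeq, and of the other fixed miRNA genes those matched by name are given. mir-58b and mir-58c were added to these by their annotated names. Alternatives were other windows, overlap in place of the summit, a higher signal threshold and each replicate alone. The longer B box word set at first was replaced in the text by its 9-base core.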

Additional observations from a re-analysis of the deposited data

How the results depend on the processing

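The 5 members with a thresholded summit were the same under windows from 1500 or 5000 bp upstream, a window measured from the 5′ end, any overlap of the peak, and each replicate alone. With thresholded peaks above the median signal, 2 members (mir-51 and mir-52) and 3 distinct peaks remained, and the shares of miRNA and protein-coding genes were 4.98% and 2.34%. The protein-coding share was 3.74% and 5.49% with the shorter and the longer window and 2.94% with the window measured from the 5′ end. With 1 replicate left out, the distinct family peaks numbered 3 to 4 and the protein-coding share was 4.15% to 4.51%. The ranks then were 185 to 19707 for the second mir-52 summit, 7 to 20 for that of mir-51 and 17 to 24 for the main mir-52 summit. In replicate 1 the mir-54 hairpin summit ranked 295 and the summit upstream of mir-54 ranked 905. In replicate 3 a single peak, with rank 619, overlapped both of these thresholded peaks. Its summit was 155 bp upstream of mir-54, so the hairpin summit had no replicate 3 rank of its own. The family summits with a B box word numbered 0 with the longer word and its 9-base core and 1 with the looser core, both cores added after the data had been seen. The cause of these shifts was not tested. No paired analysis was possible because there was 1 group. The unknown depth limits every rank, above all among weak peaks.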
